A study of Mus musculus with 16 samples.

Results

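TRAJ21, TRAJ22, TRAJ23, TRAJ24, TRAJ26, TRAJ27 and TRAJ28 are 7 neighbouring J segments of the mouse T cell receptor α (TCRα) locus. They were taken as every J segment numbered from 21 to 28 that was the best J match of at least 1 CDR3 sequence. They are 7 of the 44 J segments in the data, and 19534 of 83992 CDR3 sequences used one of them. TRAJ25, which lies among them, was the best match of 0 sequences.

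A TCRα chain is assembled in the thymus when a V segment is joined to a J segment. The CDR3 spans that joint and contributes to contact with peptide and MHC. Its 3′ part is encoded by the J segment, while bases at the joint can be trimmed or inserted without a template. A first joining can be followed by further ones on the same allele, in which V segments farther upstream are joined to J segments farther downstream, so the position of a J segment within the locus bears on the V segments it can meet.

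The repertoires came from CD8 T cells of Foxp3-GFP mice on the C57BL/6 strain background that were either wild type (Themis+/+) or lacked Themis (Themis-/-), a protein of the TCR signaling pathway needed for normal thymic selection. Both genotypes carried the Foxp3-GFP reporter. For each genotype, cells were sorted as single positive CD8 thymocytes or as CD8 cells from lymph nodes (LN), and either all TCRαβ+ CD8 cells or only Vα3.2+ CD8 cells were taken. Each of the 8 groups had 2 libraries. The series' design text ascribes them to 2 individual mice, whereas the sorting methods describe lymph nodes that were combined from several mice of one genotype, so the number of animals behind a LN library is not settled. A Themis-/- genotype is carried by every cell of the animal, so a difference between genotypes cannot be placed at one stage of development from these libraries. P values measure the spread between these few libraries.

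Libraries of all CD8 cells held 57455 to 146191 reads in 4357 to 16670 distinct CDR3 nucleotide sequences, and sorted Vα3.2+ libraries held 10338 to 25247 reads in 84 to 1610 sequences. The sorted thymus libraries of replicate 1 had only 84 sequences (Themis+/+) and 86 sequences (Themis-/-) and stood apart from the others in depth. Vα3.2 is the product of TRAV9N-3, which was counted here together with TRAV9D-3. These segments held 83.1% to 89.3% of the reads in the 4 sorted libraries of replicate 1, 41.2% to 67.3% in the 4 of replicate 2 and 0.610% to 3.22% in all CD8 cells, so the sorted libraries differed with the replicate number. The whole TRAV9 family held 98.8% to 99.9% of sorted reads and 2.03% to 4.74% of those of all CD8 cells. The sort is written as Vα2.3 in 1 label field. The rearrangement of invariant NKT cells (TRAV11 with TRAJ18) took at most 0.419% of reads and that of MAIT cells (TRAV1 with TRAJ33) at most 0.0424%. Reads and sequences are shares of RNA, and more cells of a clone cannot be told apart from more TCR RNA per cell.

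The germline segments are shown because 2 of their features are used in the results: how many bases each one adds to the CDR3, and which bases stand at its 3′ end. They lie on the plus strand of chromosome 14 in GRCm38, within 7186 bases that run from TRAJ28 (start 54191661) to TRAJ21 (end 54198846), in this order, as numbers 34 to 41 of the 60 TRAJ segments counted from the 5′ end. Each is an exon of J type in the annotation. The part that belongs to the CDR3 is in capitals, and the lower case part is framework 4.
TRAJ28: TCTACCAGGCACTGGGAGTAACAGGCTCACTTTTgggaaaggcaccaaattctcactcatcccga
TRAJ27: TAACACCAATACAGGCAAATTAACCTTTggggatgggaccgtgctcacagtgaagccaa
TRAJ26: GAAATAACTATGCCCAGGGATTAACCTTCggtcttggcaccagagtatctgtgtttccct
TRAJ24: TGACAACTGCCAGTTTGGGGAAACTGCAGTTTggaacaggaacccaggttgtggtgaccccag
TRAJ23: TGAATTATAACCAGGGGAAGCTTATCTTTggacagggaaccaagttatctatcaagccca
TRAJ22: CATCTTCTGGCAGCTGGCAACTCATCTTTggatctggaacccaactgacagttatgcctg
TRAJ21: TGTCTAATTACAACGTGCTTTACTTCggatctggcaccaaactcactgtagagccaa
The CDR3 part was shortest in TRAJ21, with 26 bases, and longest in TRAJ28, with 34 bases. TRAJ27 had 28 bases, TRAJ22, TRAJ23 and TRAJ26 had 29 bases each, and TRAJ24 had 32 bases.

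The 3′ end of the CDR3 did not match these germline bases in a large part of the reads from all CD8 cells, and the mismatch was specific to a few positions of each segment. Positions are counted from 1 at the 5′ end of the last 12 bases of the CDR3, and a substitution gives the germline base, the position and the base in the reads. The forms that made up most reads of TRAJ21 in all CD8 cells are shown with the altered base in capitals.
TRAJ21, germline form: gtgctttacttc
TRAJ21, T6G: gtgctGtacttc
TRAJ21, T7G: gtgcttGacttc
TRAJ21, T6G and T7G: gtgctGGacttc
The germline form took 49.2% of TRAJ21 reads pooled over the 8 libraries of all CD8 cells, T6G alone took 21.4%, T7G alone took 16.8% and both together took 11.7%. The germline form ranged from 41.9% to 58.1% over those 8 libraries. In the 8 sorted libraries it took at least 99.7% of TRAJ21 reads in each.

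TRAJ22, TRAJ23, TRAJ26, TRAJ27 and TRAJ28 had the same kind of change.
TRAJ22, T8G: caactcaGcttt
TRAJ23, T6G: aagctGatcttt
TRAJ23, T8G: aagcttaGcttt
TRAJ26, T4G: ggaGtaaccttc
TRAJ27, T4G: aaaGtaaccttt
TRAJ28, T9G: aggctcacGttt
T8G took 24.8% of TRAJ22 reads. In TRAJ23, T6G alone took 22.5%, T8G alone took 12.6% and both together took 10.1%. T4G took 30.4% of TRAJ26 reads and 29.7% of TRAJ27 reads, and T9G took 28.5% of TRAJ28 reads. TRAJ24 differed from the other members, since its most frequent change was G6T, in 6.54% of its reads, followed by G9T in 2.20%. Each of these forms was found in all 8 libraries of all CD8 cells.

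Of 84 positions compared over the 7 segments, 9 were altered in over 5% of reads of all CD8 cells, and 8 of these were a germline T. At those 8 positions 23.0% to 33.4% of reads were altered, whereas the other 27 germline T positions stayed at 5% or under. In sorted libraries no position exceeded 0.312%. T to G changes were 9983 of 11219 substitutions, or 89.0%, in sequences of all CD8 cells, against 13 substitutions of any kind in the sorted libraries, where T to C was the most frequent with 7.

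**Figure D1:**
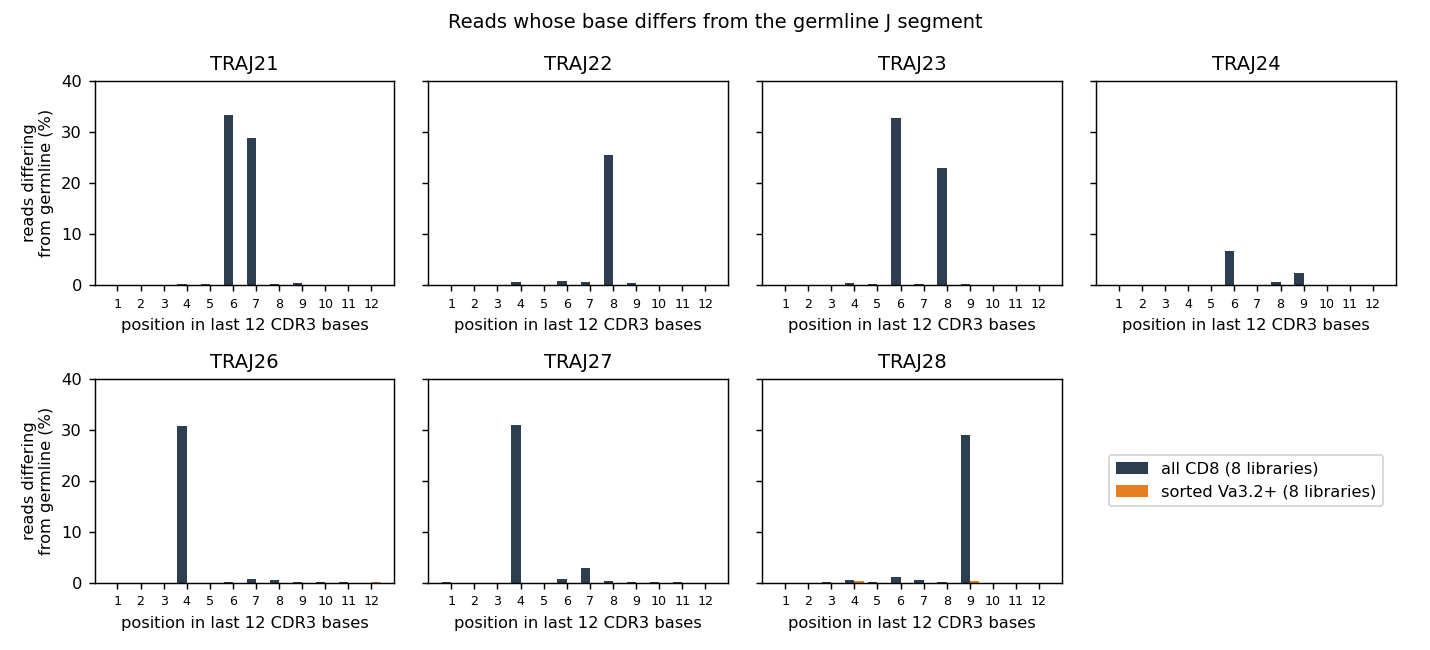
Percent of reads whose base differs from the germline J segment (y axis) at each of the last 12 bases of the CDR3 (x axis), pooled over 8 libraries of all CD8 cells (dark bars) and 8 sorted Vα3.2+ libraries (orange bars). In all CD8 cells 1 or 2 positions of each segment other than TRAJ24 reach 23.0% to 33.4%, and the sorted libraries stay at or under 0.312% at every position.

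Altered forms stood beside the germline form of the same CDR3. Of 9404 altered sequences of the 7 segments in all CD8 cells, 7706 (81.9%) had a partner in the same library with the germline end, the same V family and the same remaining bases, and these held 95.2% of the altered reads. In the other direction, 85.7% of the 1227 germline-end sequences with at least 30 reads had an altered partner, against 1.16% of 344 in the sorted libraries. A TRAJ21 sequence of Themis+/+ thymus replicate 1, joined to a TRAV3 segment, shows the pattern in 36 bases.
42 reads: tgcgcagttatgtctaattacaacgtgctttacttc
33 reads: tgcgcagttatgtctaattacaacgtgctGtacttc
25 reads: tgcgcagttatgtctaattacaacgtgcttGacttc
14 reads: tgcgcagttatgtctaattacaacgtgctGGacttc
These 4 sequences were deposited as separate clonotypes.

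The change was not particular to these 7 segments. In the other 36 TRAJ segments 2.03% to 59.0% of reads of all CD8 cells had an altered end, with a median of 31.6%. Among the members the share in reads of a library ran from 41.9% to 58.1% in TRAJ21 and from 41.99% to 53.3% in TRAJ23. It ran from 23.8% to 29.9% in TRAJ22 and from 7.36% to 13.1% in TRAJ24. The amino acids encoded by the last 12 bases differed from the germline in 74.8% of the altered sequences, because T6G in TRAJ21 and TRAJ23 and T9G in TRAJ28 are silent while the other T to G forms are not. The tables of sorted cells and of all CD8 cells also differ in a column name of the MiXCR export, so cell population and export cannot be told apart as sources of this difference. The cause was not tested.

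Since most altered sequences had a partner that differed only at the end, distinct sequences were counted in a second way as well. Sequences were joined when they shared V family, J segment, length and all bases except the last 12. Joining removed 39.5% to 48.7% of the members' sequences in libraries of all CD8 cells and at most 1.67% in sorted libraries. Shares of sequences are given below as shares of joined sequences, and tests are given for the deposited and for the joined counts. Read counts per segment are not touched by joining.

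By reads, the 7 segments together took 24.9% to 27.95% of each library of all CD8 cells and 18.3% to 27.3% of each sorted library. By joined sequences they took 21.6% to 26.0% and 21.4% to 26.7%. The widest range was in the reads of sorted cells.

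TRAJ22 was the most used J segment of all 44 in all CD8 cells. It took 8.24% ± 0.830 of reads (SD, n = 8 libraries), with a range of 7.15% to 9.93%, and it did not overlap with any other member. TRAJ26 followed with 5.12% ± 0.727 of reads and ranked 2 of 44. TRAJ23 had 4.41% ± 0.582 and ranked 4, and TRAJ21 had 3.83% ± 0.798 and ranked 6. The ranges of TRAJ26 (4.25% to 6.15%), TRAJ23 (3.19% to 5.16%) and TRAJ21 (2.97% to 5.15%) overlapped. TRAJ26 was above TRAJ23 in 5 of 8 libraries and above TRAJ21 in 7 of 8, and TRAJ23 was above TRAJ21 in 6 of 8. By joined sequences TRAJ26 (4.37% to 5.44%) did not overlap with TRAJ21 (2.82% to 4.01%), while TRAJ23 (3.59% to 5.13%) overlapped with both.

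TRAJ27 was lower, with 2.60% ± 0.386 of reads and rank 13. TRAJ24, which lies between TRAJ23 and TRAJ26, took only 1.26% ± 0.356 and ranked 33, and TRAJ28 at the 5′ end of the group took 0.899% ± 0.316 and ranked 38. The ranges of TRAJ24 (0.750% to 1.82%) and TRAJ28 (0.490% to 1.31%) overlapped, and neither reached the lowest library of TRAJ27 (2.13%). TRAJ27 in turn overlapped with TRAJ21, as its highest library had 3.34%, although TRAJ21 was above TRAJ27 within 8 of 8 libraries. By joined sequences the order of the 7 segments was the same, from 6.46% ± 0.636 for TRAJ22 to 0.784% ± 0.209 for TRAJ28. Usage did not rise or fall steadily along the 7186 bases.

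Sorted Vα3.2+ cells were more variable. TRAJ22 took 6.01% ± 4.10 of reads (SD, n = 8), from 2.24% to 15.8%, and the highest value came from Themis-/- thymus replicate 1, in which 1 joined sequence held 68.2% of the TRAJ22 reads. In the sorted LN libraries, which had 586 to 1596 joined sequences, TRAJ22 took 5.62% and 4.61% of reads in Themis+/+ and 5.62% and 4.27% in Themis-/- cells, so the genotypes overlapped. TRAJ26 and TRAJ28 were not detected in sorted Themis-/- thymus replicate 1, where a count of 0 in 10338 reads allows a share of up to 0.0290%. This limit covers counting error only, because reads after PCR are not independent molecules.

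**Figure D2:**
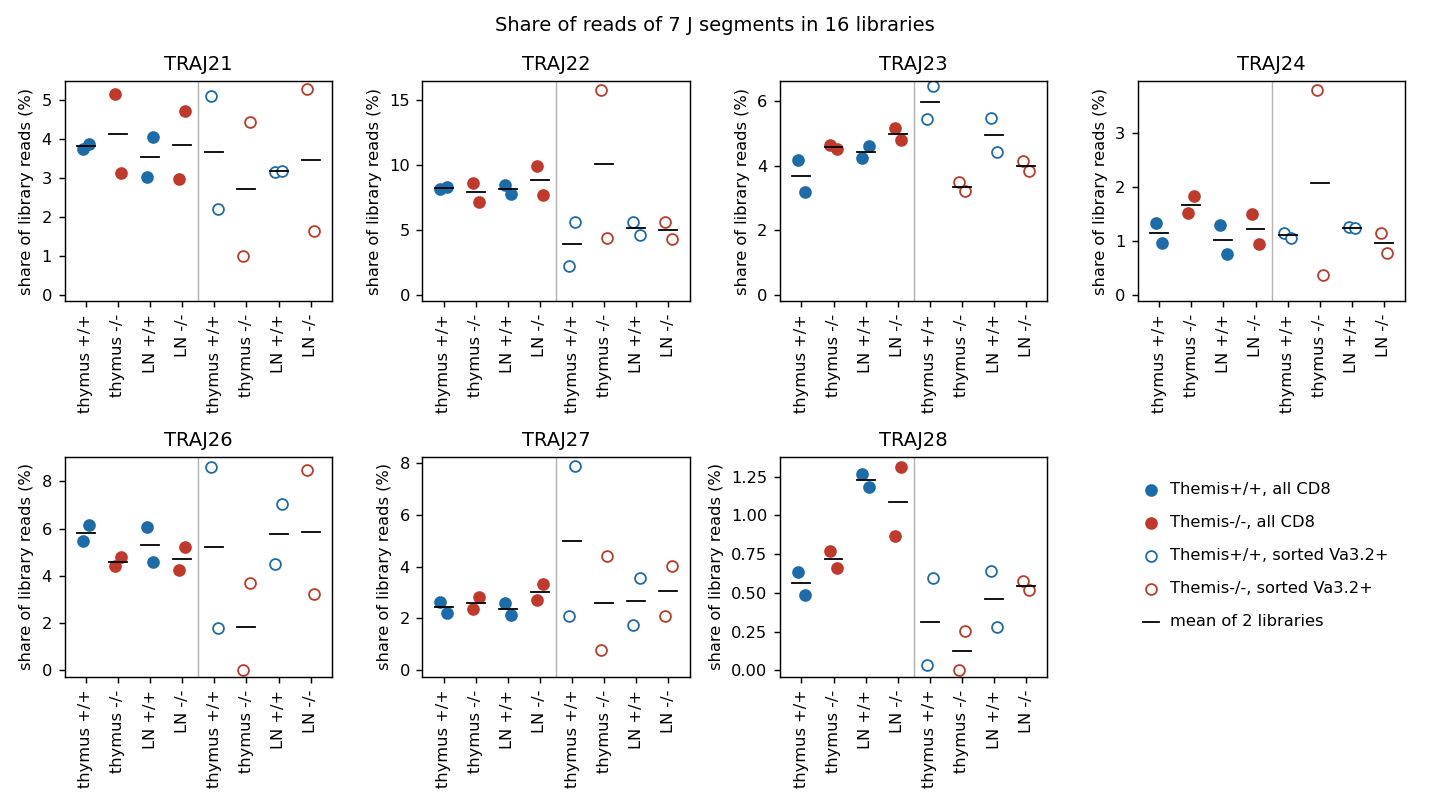
Share of library reads (%, y axis) of each of the 7 J segments in the 8 groups (x axis), with 1 point for each of 16 libraries and a line at the mean of 2. Filled points are all CD8 cells and open points are sorted Vα3.2+ cells, with Themis+/+ in blue and Themis-/- in red; sorted thymus libraries scatter most, and TRAJ22 in Themis-/- thymus reaches 15.8%.

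The comparison of genotypes asks whether loss of Themis shifts the use of these segments. Among all CD8 thymocytes, TRAJ23 had 4.19% and 3.19% of reads with Themis and 4.63% and 4.52% without it. The log2 fold change was 0.35 ± 0.21 (SE) with an adjusted p of 0.334 (edgeR quasi-likelihood test with Benjamini-Hochberg adjustment, used for all J usage tests). TRAJ26 took 5.47% and 6.15% in Themis+/+ and 4.42% and 4.80% in Themis-/- thymus, with a log2 fold change of -0.30 ± 0.19 and an adjusted p of 0.336. TRAJ24 showed the largest difference among the members, 0.57 ± 0.44, from 1.33% and 0.964% in Themis+/+ to 1.51% and 1.82% in Themis-/- thymus (adjusted p = 0.448 in edgeR).

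None of the 7 members passed the threshold of 0.05 in the thymus, where 0% of 44 J segments did. The log2 fold changes of the members ran from -0.30 to 0.57 with a median of 0.16, beside a median of -0.04 over all 44. At an unadjusted p under 0.05 there were 7 segments, of which 0 were members, and DESeq2 also called 0. By joined sequences the thymus differences were 0.02 to 0.45 for the members, all 7 above 0, with a lowest adjusted p of 0.198, and the median over 43 segments was 0.06. TRAJ23 and TRAJ27 had 0.34 ± 0.18 and 0.36 ± 0.16 by this count. By deposited sequences TRAJ23 had 0.37 ± 0.13 (adjusted p = 0.191 in edgeR), and it passed the threshold only without Themis+/+ thymus replicate 1, at 0.51 (adjusted p = 0.0473 in edgeR), where 18 of the segments were called.

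In the LN the differences were of like size. TRAJ27 took 2.58% and 2.13% of reads in Themis+/+ and 2.70% and 3.34% in Themis-/- libraries of all CD8 cells, a log2 fold change of 0.46 ± 0.30 (adjusted p = 0.449 in edgeR). TRAJ22 took 8.48% and 7.76% in Themis+/+ against 9.93% and 7.65% in Themis-/- LN, and these values overlapped. Of 44 segments 0% were called with reads in LN, 4 had an unadjusted p under 0.05 and DESeq2 called 2, none of them a member. By joined sequences TRAJ22 had the lowest p of the members, with 6.43% and 6.31% in Themis+/+ and 7.58% and 7.17% in Themis-/- LN, a log2 fold change of 0.32 ± 0.11 and an adjusted p of 0.178.

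The difference between the genotype effects in LN and thymus was tested as an interaction, and 0% of 44 segments were called with reads. The members' interaction terms ran from -0.47 for TRAJ28 to 0.32 for TRAJ27. Counts of deposited sequences gave 0% of 43 segments in each of the genotype comparisons and in the interaction, with 10 segments in thymus, 6 in LN and 0 in the interaction at an unadjusted p under 0.05. DESeq2 called 0, 1 and 0 segments, none of them a member.

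**Figure D3:**
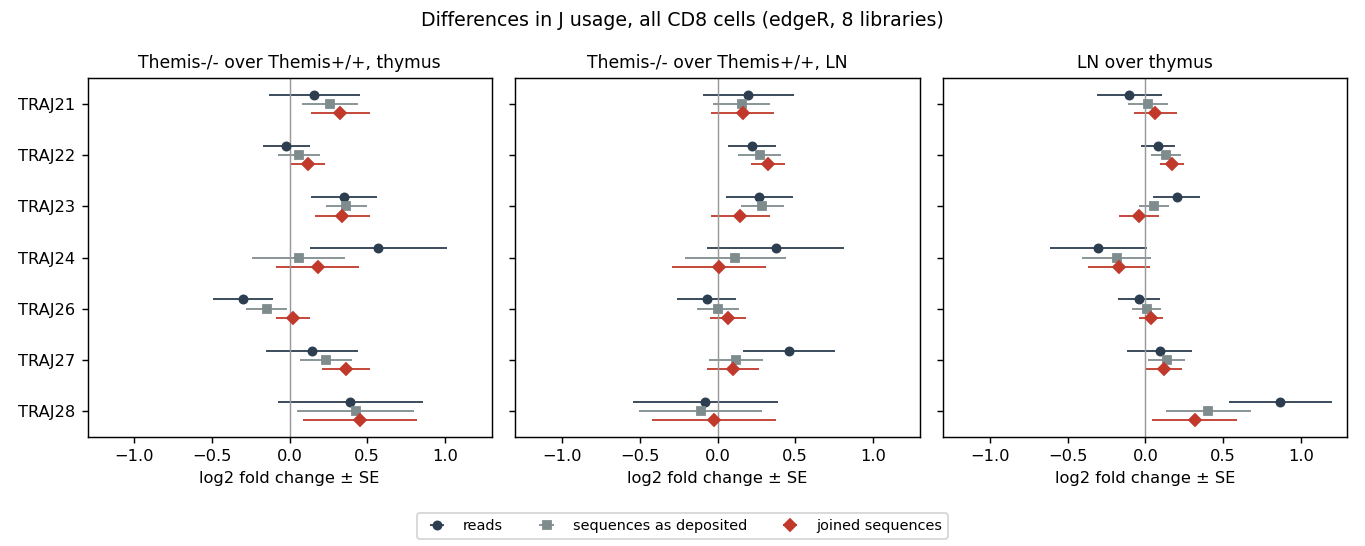
Log2 fold change ± SE (x axis) of the 7 J segments (y axis) between genotypes in thymus and LN and between LN and thymus, in 8 libraries of all CD8 cells, by reads (circles), deposited sequences (squares) and joined sequences (diamonds). No member passes the adjusted threshold; TRAJ28 stands farthest from 0 between tissues, at 0.87 ± 0.33 by reads.

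Between tissues, TRAJ28 showed the largest difference of the members. It took 0.635% and 0.490% of reads in Themis+/+ and 0.774% and 0.661% in Themis-/- thymus libraries of all CD8 cells, and 1.27%, 1.19%, 0.865% and 1.31% in the LN libraries in the same order. The log2 fold change of TRAJ28 was 0.87 ± 0.33. Its unadjusted p was 0.0196, the only one under 0.05, and its adjusted p was 0.535 in edgeR, so it failed the correction over 44 segments, of which 0% were called. DESeq2 also called 0. In LN a single joined sequence held 35.4% and 30.04% of TRAJ28 reads in the Themis-/- libraries, and by joined sequences the difference was 0.32 ± 0.27. The other members lay between -0.30 (TRAJ24) and 0.20 (TRAJ23) by reads. By deposited sequences 0% of 43 segments were called, with 3 at an unadjusted p under 0.05 and 0 called by DESeq2.

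Within sorted Vα3.2+ cells the same comparisons had wider errors. TRAJ23 took 5.46% and 6.46% of reads in Themis+/+ and 3.49% and 3.21% in Themis-/- thymus libraries, a log2 fold change of -0.88 ± 0.51 (adjusted p = 0.960 in edgeR), which is opposite in sign to that in all CD8 cells. In replicate 1 these shares rest on only 2 (Themis+/+) and 4 (Themis-/-) sequences. The most read of them held 57.3% and 48.5% of the TRAJ23 reads. In sorted LN libraries TRAJ23 took 5.49% and 4.43% in Themis+/+ and 4.15% and 3.84% in Themis-/-, a log2 fold change of -0.28 ± 0.51. The difference between the populations in this effect was not tested. For the genotype comparisons in sorted thymus and sorted LN and for LN against thymus in sorted cells, 0% of 43 segments were called by reads and 0% of 32 by deposited sequences. Unadjusted p values under 0.05 numbered 0, 0 and 1 by reads and 1, 0 and 2 by sequences, and DESeq2 called 0 in each.

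Sorted and all CD8 cells were then compared within each tissue, to ask which J segments are used more or less often in the cells sorted for Vα3.2. By joined sequences in LN, 69.8% of 43 segments were called, and 0 of the 7 members were. The members' log2 fold changes of sorted over all CD8 cells lay between -0.22 (TRAJ28) and 0.28 (TRAJ23) in LN, with standard errors of 0.16 to 0.31. TRAJ22 had 6.46%, 5.46%, 6.08% and 6.06% of joined sequences in the 4 sorted LN libraries and 6.43%, 6.31%, 7.58% and 7.17% in the 4 of all CD8 cells, a log2 fold change of -0.09 ± 0.16. In the thymus 37.2% of 43 segments were called by joined sequences, and 0 members. TRAJ28 had the largest difference there, -0.96 ± 0.66, from few sequences. The lowest adjusted p belonged to TRAJ26, at -0.67 ± 0.29 (adjusted p = 0.0658 in edgeR), followed by TRAJ27 at 0.51 ± 0.25 (adjusted p = 0.0940 in edgeR).

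With sequences as deposited, 60.5% of 43 segments were called in LN and 30.2% in the thymus, again with 0 members in edgeR. DESeq2 called 27 segments in LN, with TRAJ24 (0.82) among them, and 13 in the thymus, with TRAJ27 (0.76) among them. The value of TRAJ21 depended on joining: its log2 fold change in LN was -0.50 ± 0.24 with deposited sequences (adjusted p = 0.0544 in edgeR) and -0.01 ± 0.19 with joined sequences (adjusted p = 0.973 in edgeR). TRAJ23 moved from -0.25 ± 0.21 to 0.28 ± 0.19. Among the members these 2 had the largest share of altered ends in all CD8 cells. By reads 11.4% of 44 segments were called in LN and 0% in the thymus, with 0 members in either, and leaving out the 2 thin sorted thymus libraries of replicate 1 raised these counts to 23 and 12, with TRAJ22 (-0.56) among the calls in LN and TRAJ27 (1.33) among those in the thymus. By deposited sequences without these 2 libraries edgeR called 25 segments in LN and 10 in the thymus, with TRAJ24 (0.70, adjusted p = 0.0469 in edgeR) among the former and TRAJ27 (0.93, adjusted p = 0.0349 in edgeR) among the latter. With all libraries these members had 0.42 ± 0.36 and 0.44 ± 0.36. TRAJ24 also passed in LN when sequences of 1 read were left out (0.72), when amino acid sequences were counted (0.83) and when libraries were thinned to equal reads (0.81). None of these TRAJ24 counts was joined over the J end. In the main fit TRAJ24 passed in LN neither with joined sequences, at 0.24 ± 0.30 (adjusted p = 0.510 in edgeR), nor with deposited ones (adjusted p = 0.322 in edgeR). The settings under which it passed were not run on joined sequences, so whether its calls depend on joining was not tested. TRAJ22 passed by reads in LN when only the compared groups were fitted (-0.63).

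Calls of members between the populations also changed when a single library was left out. Each such fit left 1 library in a group. Segments other than the members were called in such fits as well, with the ranges given in the closing section, so these calls are not particular to the members. By deposited sequences TRAJ21 passed the threshold in LN, at -0.49 to -0.60, without Themis+/+ sorted thymus replicate 2, Themis-/- sorted thymus replicate 2, Themis-/- LN replicate 1 or either Themis+/+ thymus library of all CD8 cells. TRAJ24 passed it in LN without Themis-/- sorted thymus replicate 1 (0.70). In the thymus TRAJ27 passed it without Themis+/+ sorted replicate 1 (0.88), TRAJ23 without Themis+/+ sorted replicate 2 (-1.15), and TRAJ26 without Themis+/+ replicate 1 of all CD8 cells (-0.83). Leaving out Themis-/- sorted thymus replicate 2 kept only the library of that group with 0 TRAJ26 sequences, and TRAJ26 then passed the threshold by reads and by deposited sequences, also between genotypes in sorted thymus and between tissues in sorted cells by reads. By reads TRAJ21 (-1.34) and TRAJ28 (-6.18) passed it in the thymus without the same library, and TRAJ22 (-1.05) and TRAJ28 (-3.32) without Themis+/+ sorted replicate 2.

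The J segments whose share of deposited sequences over the 16 libraries ran most like that of the sum of the 7 were TRAJ18, TRAJ12 and TRAJ15. Likeness was the root mean square difference of log2 shares, each centred on its own mean, and was 0.37, 0.39 and 0.43 for them, beside a median of 0.74 over the 37 other segments. Members are part of the sum, yet TRAJ28 (0.58), TRAJ24 (0.62) and TRAJ26 (0.80) lay farther from it. TRAJ22 (0.21), TRAJ23 (0.26), TRAJ27 (0.28) and TRAJ21 (0.33) lay nearer. Without the 2 thin sorted libraries TRAJ28, TRAJ24 and TRAJ26 had 0.47, 0.38 and 0.24. With joined sequences the nearest were TRAJ33, TRAJ18 and TRAJ34. Without the 2 thin sorted libraries they were TRAJ18 (0.33), TRAJ31 (0.35) and TRAJ57 (0.38) by deposited sequences, and TRAJ18 (0.30), TRAJ33 (0.32) and TRAJ32 (0.39) by joined sequences.

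CDR3 length followed the germline length of each segment. TRAJ21 had the shortest CDR3s of the members, with a mean of 38.2 bases ± 0.340 (SD, n = 8 libraries of all CD8 cells), and TRAJ28 had the longest, with 45.3 ± 0.652. TRAJ26 had 39.5 ± 0.251, TRAJ27 had 40.1 ± 0.429, TRAJ23 had 41.0 ± 0.279, TRAJ22 had 41.6 ± 0.213 and TRAJ24 had 43.0 ± 0.265. Over the 42 J segments with at least 20 sequences in each library, Pearson's r between germline bases in the CDR3 and mean CDR3 length was 0.940. This is a description across segments, which share the libraries and are not independent replicates. TRAJ26, TRAJ23 and TRAJ22 all carry 29 germline bases, yet the ranges over libraries of TRAJ26 (39.3 to 40.03) and TRAJ22 (41.3 to 41.9) did not overlap.

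Each segment was compared with the mean of the other segments by an exact sign-flip permutation test over the 8 libraries, two-sided, whose smallest p is 0.00781. The test takes the 8 libraries as independent, whereas thymus and LN libraries may come from the same mice. If they do, its p values are too small. With sequences as deposited 95.2% of 42 segments were called, 47.6% as shorter and 47.6% as longer, so that all 7 members being called is near the background. TRAJ21 was 3.15 bases shorter, TRAJ26 1.78, TRAJ27 1.17 and TRAJ23 0.310 bases shorter than the mean of the others. TRAJ28 was 4.09 bases longer, TRAJ24 1.81 and TRAJ22 0.304 bases longer. With joined sequences 83.8% of 37 segments were called. TRAJ23 then differed by 0.0543 bases, with an adjusted p of 0.578 in the exact permutation test, and TRAJ28 had too few sequences to be tested.

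**Figure D4:**
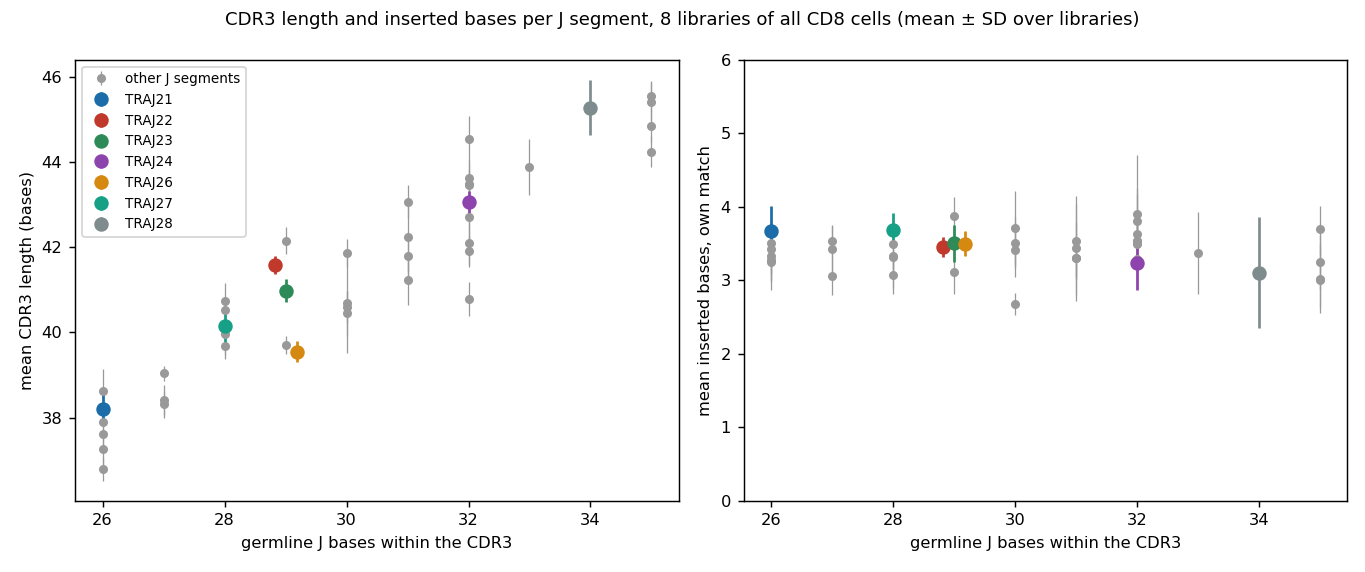
Mean CDR3 length (left, bases) and mean inserted bases by matching to the germline (right) against the germline J bases within the CDR3 (x axis) for 42 J segments, as mean ± SD over 8 libraries of all CD8 cells, with the 7 members in colour and shifted slightly sideways where they coincide. Length rises with the germline bases, from 38.2 for TRAJ21 to 45.3 for TRAJ28, while inserted bases show no such rise.

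No member passed the threshold for CDR3 length between genotypes or tissues. In thymus, LN and between tissues 0% of 42 segments were called for length by limma, with 2, 3 and 4 at an unadjusted p under 0.05. The largest member differences were -0.90 ± 0.60 bases for TRAJ28 between genotypes in thymus, -0.52 ± 0.29 for TRAJ22 between genotypes in LN, and 0.63 ± 0.24 for TRAJ27 in LN over thymus (unadjusted p = 0.0234 and adjusted p = 0.314 in limma). With joined sequences TRAJ27 differed by 0.57 ± 0.21 between tissues (unadjusted p = 0.0248 in limma). Between genotypes in LN, TRAJ21 then differed by -0.57 ± 0.24 and TRAJ22 by -0.51 ± 0.21, with unadjusted p values of 0.0457 and 0.0405 and an adjusted p of 0.305 for both in limma. In sorted cells, where length was not tested, the members' sequences averaged 40.5 and 40.2 bases in the Themis+/+ and 39.9 and 40.6 bases in the Themis-/- LN libraries.

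Inserted bases at the joint were counted between the ends of the V and J alignments as deposited. By this count TRAJ24 had 5.99 ± 0.271 inserted bases per sequence (SD, n = 8), the most of all 42 segments, whose median was 2.00. The other members had between 1.73 (TRAJ28) and 2.12 (TRAJ27). The value of TRAJ24 depended on how the bases were counted. When both the V and the J part were matched anew to the germline segments, with the last 12 bases taken as germline, TRAJ24 had 3.23 ± 0.367 inserted bases and ranked 35 of 42. By this match the members lay between 3.10 for TRAJ28 and 3.69 for TRAJ27, so the count was higher than the deposited one for the members other than TRAJ24.

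Against the mean of the other segments 50% of 42 were called for the deposited count, including TRAJ24 (4.01 bases more) and TRAJ22 (0.329 bases fewer). With joined sequences 43.2% of 37 were called, including the same members. With the match to the germline neither was called, at 0.177 fewer for TRAJ24 and 0.0440 more for TRAJ22. CDR3s with 0 inserted bases by the deposited count made up 38.8% ± 4.65 of joined TRAJ22 sequences (SD, n = 8) and 31.7% ± 2.07 of those of all 7 members, beside 33.3% ± 1.87 for the other segments. The value of the 7 includes TRAJ24, with 7.32% ± 2.55, whose deposited count depended on the method. The other members had means of 29.8% to 41.5%.

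Between genotypes inserted bases of the members did not pass the test, and 0% of 42 segments did in thymus and in LN, with 4 and 5 at an unadjusted p under 0.05. TRAJ21 had 2.07 and 2.59 bases in Themis+/+ LN libraries and 1.67 and 1.58 in Themis-/- LN libraries, and the difference was -0.71 ± 0.21 (adjusted p = 0.216 in limma). TRAJ27 differed by -0.46 ± 0.17 in the thymus (adjusted p = 0.341 in limma). With joined sequences 0 of 37 segments were called in thymus and in LN, with 3 and 6 at an unadjusted p under 0.05. The differences of the 6 members tested then ran from -0.44 to 0.22 in thymus and from -0.65 to 0.07 in LN. Their lowest unadjusted p values were 0.0235 and 0.00335 (adjusted p = 0.426 and 0.118 in limma). TRAJ24 in LN differed by 0.07 ± 0.31 with the deposited count and by -0.82 ± 0.31 with the match to the germline (unadjusted p = 0.0270 and adjusted p = 0.426 in limma), where TRAJ21 had -0.69 ± 0.27 (adjusted p = 0.426 in limma). Between tissues 2.38% of 42 segments were called, and no member was.

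By joined sequences TRAV12 was the most frequent family with the members, at 17.9% ± 2.08 (SD, n = 8 libraries of all CD8 cells), followed by TRAV7 at 14.7% ± 1.16, TRAV6 at 13.05% ± 0.944 and TRAV14 at 11.2% ± 1.10. TRAV9, the family that includes TRAV9N-3, made up 4.04% ± 1.55. The same families made up 16.9%, 12.5%, 13.5%, 10.2% and 3.995% of the sequences of the other J segments.

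Of 12 V families with at least 10 member sequences in every library, 0% passed the exact sign-flip permutation test with deposited sequences, where 6 had an unadjusted p under 0.05, and 16.7% passed with joined sequences. Here too the test takes the 8 libraries as independent, and its p values are too small if thymus and LN libraries share mice. With joined sequences TRAV7 was higher with the members in 8 of 8 libraries, by 0.24 on the log2 scale (SD 0.12, adjusted p = 0.0469, exact permutation test). With deposited sequences its adjusted p was 0.0781 in that test. There TRAV7 was lower with the members in Themis-/- thymus replicate 2, at 14.7% against 15.1%. TRAV4 was lower in 8 of 8 libraries, by -0.48 (SD 0.31, adjusted p = 0.0469 with joined and 0.0781 with deposited sequences, exact permutation test). TRAV4 made up 3.05% of joined member sequences, from 1.78% to 4.15%, beside a mean of 4.18% with the other segments. TRAV13, TRAV8 and TRAV5, named after their values were seen, did not pass. TRAV13 made up 9.14% with the members and 7.58% with the others (adjusted p = 0.117, exact permutation test with joined sequences), TRAV8 4.51% and 3.74% (adjusted p = 0.117, same test) and TRAV5 2.03% and 2.57% (adjusted p = 0.150, same test). Mean log2 ratios of TRAV9, TRAV12 and TRAV6 were 0.01, 0.08 and -0.05 with joined sequences, and their signs differed between libraries. TRAV14 had 0.14 with joined sequences (adjusted p = 0.172, exact permutation test) and 0.53 by reads (adjusted p = 0.0469, exact permutation test). The excess of TRAV7 depended on the comparison: against the neighbouring segments TRAJ11 to TRAJ18 and TRAJ30 to TRAJ35 alone it was -0.01 on the log2 scale with deposited sequences, while that of TRAV4 was -0.25.

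**Figure D5:**
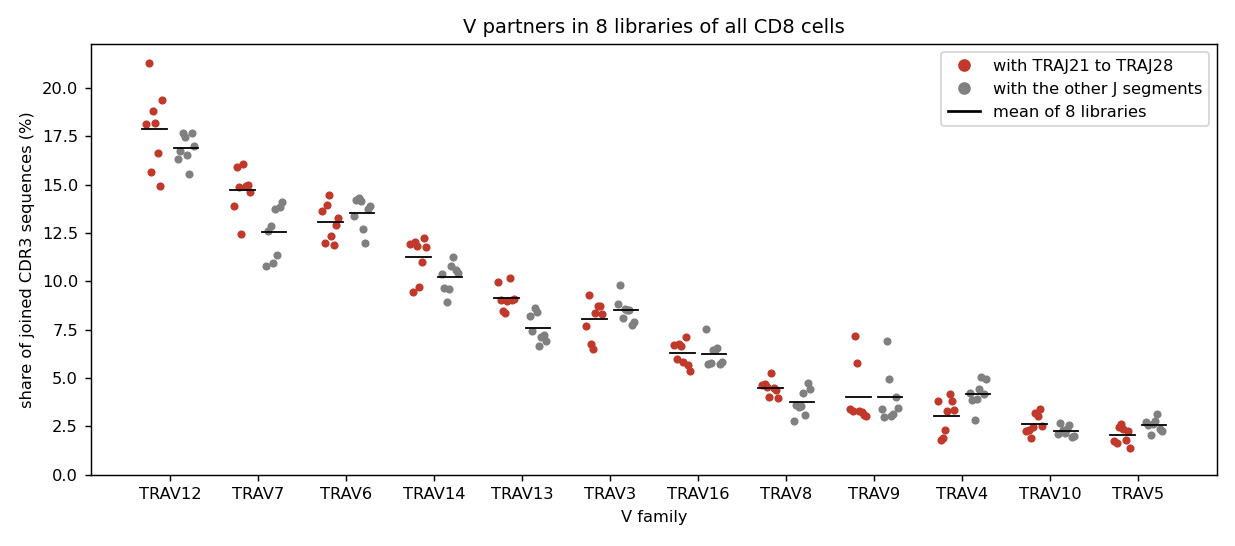
Share of joined CDR3 sequences (%, y axis) of 12 V families (x axis) among sequences of TRAJ21 to TRAJ28 (red) and of the other J segments (grey), with 1 point for each of 8 libraries of all CD8 cells and a line at the mean. TRAV12 leads in both, TRAV7 lies higher with the members (14.7% against 12.5%) and TRAV4 lower (3.05% against 4.18%).

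TRAV12 was the most frequent family with TRAJ22, TRAJ23, TRAJ24, TRAJ27 and TRAJ28, at 14.7% to 21.1%, while TRAV7 led with TRAJ21 (16.3% ± 3.66) and TRAJ26 (16.4% ± 0.665). TRAV14 ranked 2 with TRAJ22, at 13.1% ± 2.38 (SD, n = 8), 4 with TRAJ21, TRAJ23, TRAJ24 and TRAJ27, 5 with TRAJ26 and 6 with TRAJ28.

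Pairs of a V family with a J segment were tested over 410 pairs, of which 71 held a member. None of these 71 passed the threshold. Between genotypes 0% of pairs were called in thymus and 0.732% in LN, and between tissues 0% were called, with 26, 35 and 33 pairs at an unadjusted p under 0.05 and 0 called by DESeq2 in each. The lowest p among members in LN was that of TRAV9 with TRAJ23, which was higher in Themis-/- cells by 1.82 ± 0.53 on the log2 scale with an adjusted p of 0.158 in edgeR, followed by TRAV9 with TRAJ21, by 1.63 ± 0.60 with an adjusted p of 0.327. TRAV9 reads as a whole took 2.41% and 2.19% of Themis+/+ and 4.74% and 3.73% of Themis-/- LN libraries of all CD8 cells, and TRAV9N-3 with TRAV9D-3 took 0.610% and 1.32% against 3.22% and 2.38%.

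Some CDR3s of these segments recurred in every library of all CD8 cells. For each segment, the amino acid CDR3 found in the most libraries of all CD8 cells was taken, with its most read nucleotide sequence. Several CDR3s were found in equally many libraries, 15 for TRAJ22 and 2 to 6 for the other members. Of these, the CDR3 with the highest mean share of reads was taken. Bases that match the germline J segment without a break from the 3′ end are in capitals.
TRAJ22 with TRAV14N-1: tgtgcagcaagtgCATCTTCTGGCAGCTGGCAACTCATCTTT
TRAJ23 with TRAV12N-3: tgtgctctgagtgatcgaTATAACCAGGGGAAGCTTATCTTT
TRAJ21 with TRAV3N-3: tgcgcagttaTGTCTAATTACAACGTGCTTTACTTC
TRAJ26 with TRAV7D-2: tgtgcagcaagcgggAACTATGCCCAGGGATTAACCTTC
TRAJ24 with TRAV3N-3: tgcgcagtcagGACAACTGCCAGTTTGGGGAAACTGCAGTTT
TRAJ27 with TRAV10D: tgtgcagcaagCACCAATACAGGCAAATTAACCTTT
TRAJ28 with TRAV13N-1: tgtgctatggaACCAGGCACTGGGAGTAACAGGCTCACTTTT
Percentages below are those of the amino acid CDR3 over all its nucleotide sequences. The TRAJ22 CDR3 took 0.559% and 0.495% of reads in Themis+/+ thymus, 0.482% and 0.554% in Themis-/- thymus, 0.653% and 0.489% in Themis+/+ LN and 0.718% and 0.805% in Themis-/- LN. The printed sequence retains all 29 germline J bases of the CDR3, with 0 inserted bases by the deposited count, and held 79.0% of the reads of this CDR3. For the other printed sequences this share was 17.4% in TRAJ23, 17.8% in TRAJ21, 63.0% in TRAJ26, 47.9% in TRAJ24, 66.2% in TRAJ27 and 42.6% in TRAJ28. Those of TRAJ23 and TRAJ21 thus stand for a minor part of the reads of their CDR3. Forms with the silent T6G count as separate nucleotide sequences in these shares. The TRAJ21 CDR3 had 17 nucleotide sequences and 8 after joining, and the TRAJ23 CDR3 had 19 and 10. The shares were not counted on joined sequences or per V segment. In the 8 sorted libraries, the CDR3s of TRAJ22, TRAJ23, TRAJ26, TRAJ27 and TRAJ28 were found in 0, that of TRAJ24 in 1 and that of TRAJ21 in 5. None of the printed sequences was joined to TRAV9, the family that held 98.8% to 99.9% of sorted reads. These counts therefore cannot be read as traits of the J segments.

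The CDR3s of TRAJ23, TRAJ21 and TRAJ26 were also found in 8 of 8 libraries of all CD8 cells. That of TRAJ23 ranged from 0.0698% to 0.374% of reads, that of TRAJ21 from 0.00398% to 0.142% and that of TRAJ26 from 0.00174% to 0.114%. The CDR3s of TRAJ24, TRAJ27 and TRAJ28 were found in 6 of 8 each. Only germline-end sequences counted, 16 amino acid CDR3s of the members were present in all 8 libraries, of which 10 used TRAJ22, and 17 among all other segments. As a share, 5.81% of 5287 amino acid CDR3s of the members and 3.75% of 19243 of the other segments were found in at least 4 of 8 libraries, and 9.88% of those of TRAJ22. These shares also depend on how deeply each segment was sampled, and they were not tested.

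In sorted Vα3.2+ LN cells, the CDR3 with the highest mean share among those present in all 4 libraries was taken for each segment. No CDR3 of TRAJ24 or TRAJ28 was in all 4.
TRAJ26: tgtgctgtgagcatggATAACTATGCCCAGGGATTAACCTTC
TRAJ21: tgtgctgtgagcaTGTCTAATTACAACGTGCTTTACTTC
TRAJ22: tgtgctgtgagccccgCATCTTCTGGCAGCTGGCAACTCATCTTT
TRAJ23: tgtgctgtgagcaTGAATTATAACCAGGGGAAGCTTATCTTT
TRAJ27: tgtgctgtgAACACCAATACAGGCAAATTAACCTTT
All 5 were joined to TRAV9N-3. The TRAJ26 CDR3 took 0.631% and 2.05% of reads in Themis+/+ and 4.0005% and 0.422% in Themis-/- sorted LN libraries, a wide spread with overlap between genotypes. The TRAJ23 CDR3 was less variable, at 0.417% and 0.348% in Themis+/+ and 0.329% and 0.295% in Themis-/- libraries. The TRAJ21 CDR3 took 0.446% and 0.153% against 0.974% and 0.345%, and was also found in 3 of 4 sorted thymus libraries. The TRAJ22 and TRAJ27 CDR3s ranged from 0.126% to 0.694% and from 0.0421% to 0.297% of reads in the 4 libraries.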

How the data were processed

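TCRα repertoires were measured in 16 libraries, with 2 in each of 8 groups. Per the study's methods, the authors made cDNA from total RNA by template switching, amplified it in consecutive PCRs with constant region primers and ran the libraries on a MiSeq instrument. MiXCR, of a version not named here, turned the reads into clonotypes. The submitters' processing notes also name CASAVA 1.4 and mm9. The deposited count is the number of reads per CDR3 nucleotide sequence, without molecular identifiers, and the deposited fraction is that count divided by the library total. Groups were taken from the labels, and the best J and V matches from the deposited tables.

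Reads and distinct sequences per J segment, and sequences per pair of V family and J segment, were compared with edgeR 4.0.16 (quasi-likelihood test, TMM, at least 10 counts in at least 2 libraries) in R 4.3.3, in 1 fit per population without a replicate term, or over both populations where these were compared. DESeq2 1.42.0 served as an alternative. CDR3 length and inserted bases per segment, for segments with at least 20 sequences in every library, were compared with limma 3.58.1. Members against other segments were compared within libraries by an exact two-sided sign-flip test over 8 libraries of all CD8 cells, with a pseudocount of 0.5 for the log2 ratios of V families. P values were adjusted by the Benjamini-Hochberg method over all features of a comparison, with a threshold of 0.05. Joining of sequences over the last 12 bases of the CDR3, the match of inserted bases to germline segments and the fit without the 2 thin sorted libraries were added after seeing the data. Germline sequences and coordinates come from GENCODE M21 on GRCm38 and were matched by sequence, not by mm9 position.

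The members and lists were chosen with earlier results of these data known. All 7 members are named in every comparison. V families named are TRAV9, TRAV14, TRAV12, TRAV6 and those that passed the threshold, pairs that passed it, and CDR3s by the rules given in the text. The 2 pairs of TRAV9 with a member were named after their values were seen. On counts simulated for the genotype comparison in LN, 10 of 43 or 44 segments were changed. At a log2 fold change of 0.5, 10% were recovered by reads and 10% by sequences, at 1, 30% and 50%, and at 2, 100% and 70%. Of 50 changed pairs of V family and J segment, 0% were recovered at 0.5 and at 1, and 32% at 2.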

Additional observations from a re-analysis of the deposited data

How the results depend on the processing

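No member passed the threshold in the comparisons of genotype or tissue in all CD8 cells under the alternatives tried, other than TRAJ23 by deposited sequences as given above. The members and the named V families gave 2983 values under alternatives. Of these, 2936 stayed on their side of the threshold, 37 passed it newly, 6 no longer passed it and 4 reversed. Other J segments and pairs of V family and J segment were not among these values. Among the 2936, 364 values that passed it under neither setting changed sign. Length of TRAJ23 against the other segments reversed to 0.452549 bases where at least 50 sequences per library were asked for, which leaves fewer segments to compare with, and to 0.0543 with joined sequences. Inserted bases reversed with the germline match to 0.0440 for TRAJ22 and -0.177 for TRAJ24. Sequences with more than 1 equally good J match do not occur, so that alternative changed nothing.

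Counts of called segments changed as follows, and the cause was not tested. By reads between genotypes, 1 segment each was called in thymus and LN when only the compared groups entered the fit, and in LN 2 by DESeq2 and 1 without sequences of 1 read. By reads, sorted against all CD8 thymocytes gave 2 with DESeq2 size factors, 6 with DESeq2 and 12 without the 2 thin libraries. In LN it gave 10 with DESeq2, 2 without sequences of 1 read, 19 with only the compared groups and 23 without the thin libraries. By deposited sequences DESeq2 called 1 segment between genotypes in LN. Between tissues in sorted cells 2 were called with TRAV9N-3 and TRAV9D-3 alone and 1 without the thin libraries, and between sorted and all CD8 thymocytes 8 without sequences of 1 read and 6 after thinning to equal reads. For pairs between genotypes in LN the count was 0 with DESeq2, without sequences of 1 read and with joined sequences, and 1 with reads, and between tissues 1 with reads. Length against other segments gave 22 calls with at least 50 sequences. Inserted bases gave 1 call between genotypes in thymus with at least 50 sequences, 0 between tissues without sequences of 1 read, with joined sequences or with the germline match, and, against other segments, 0 weighted by reads, 12 with at least 50 sequences and 0 with the germline match. V families gave 2 with reads, 2 without sequences of 1 read and 2 with joined sequences.

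Leaving out 1 library at a time gave 0 to 9 calls by reads between genotypes in thymus and 0 to 3 in LN, 0 to 2 in sorted thymus, 0 to 2 between tissues in sorted cells, and 0 to 21 in thymus and 0 to 11 in LN for sorted against all CD8 cells. By deposited sequences it gave 0 to 18 between genotypes in thymus, 0 to 1 between tissues in sorted cells, and 5 to 23 in thymus and 12 to 28 in LN for sorted against all CD8 cells. Pairs ranged from 0 to 3 in thymus, 0 to 3 in LN and 0 to 1 between tissues. Length ranged from 0 to 1 between genotypes in LN and 0 to 3 between tissues, and inserted bases from 0 to 1 between genotypes in thymus and 0 to 1 between tissues. The highest counts between genotypes in thymus came without Themis+/+ thymus replicate 1. Where 1 sample was left in a group, it was assumed to vary like the others.

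Correlations of deviations between same-numbered libraries ran from -0.673 to 0.206 by reads in all CD8 cells over 6 pairs. In sorted cells they ran from -0.0204 to 0.640 by reads, with 5 of 6 above 0.1, and from -0.294 to 0.469 by deposited sequences, and the share of TRAV9N-3 and TRAV9D-3 also went with the number there. As not every pair exceeded 0.1 and the labels name no shared source, the numbers were not taken as pairing. The paper states that its repertoire data combined 2 experiments per genotype. Whether the numbers mark these experiments is not stated, so a batch that goes with the number cannot be told apart. With the replicate block 2 segments were called by reads between genotypes in thymus, 4 in LN and 1 for sorted against all CD8 cells in LN, none of them a member, and 0 segments in each comparison within sorted cells, by reads and by sequences.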
